A study of Mus musculus with 37 samples.

Results

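The collagen genes of the mouse were followed in the mammary gland after exposure to gamma rays or silicon ions. Members were all genes whose symbol is Col, digits, a, digits, and a gene was measured by its probe set with the highest mean over 37 arrays. This gave 42 collagen genes among 18820 named genes, and 39 of them passed the filter on low values described below. They comprised 11 chains of fibrillar collagens, 6 chains of type IV collagen of basement membranes and 25 chains of other types.

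Collagens are secreted proteins whose chains wind around each other in a long helix. Fibrillar collagens, chiefly types I, III and V, pack side by side into the fibres of the connective tissue around ducts and fat cells, and fibroblasts are their main source. Type IV collagen forms the sheet-like network of the basement membrane under epithelium and around vessels, fat cells and muscle fibres. Type VI collagen forms beaded filaments near cell surfaces and is abundant in fat tissue, which fills most of the gland of a virgin mouse.

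Total RNA came from intact inguinal mammary glands of female BALB/c mice that were sham irradiated, or received 100 cGy of gamma rays or 30 or 10 cGy of Si particles of 350 MeV/amu at 10 weeks of age. The mice of all groups, sham included, had lost the opposite inguinal gland to clearing earlier and had travelled by courier to the irradiation facility. Glands were collected 1, 4 and 12 weeks after exposure, at that facility for week 1 and after the return journey for weeks 4 and 12, so time after exposure, age and place of collection cannot be told apart. Each of the 12 groups held 3 arrays, except sham at week 4 with 4, and the labels call them separate samples and no more, so the spread behind each p-value is that among these samples and can be technical.

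Levels are log2 expression values, and each difference is a log2 difference with its SE, estimated by 1 limma model of all 37 arrays. A gene was called at a Benjamini-Hochberg adjusted p under 0.05 over all 13174 genes tested. Over these genes, pairs of arrays correlated at 0.896 to 0.990 (median 0.967), and the arrays that departed most were replicate 3 of sham week 1 (median correlation 0.932) and replicate 1 of sham week 4 (0.946). The number of arrays limits the precision, and levels of different probe sets are not comparable. The fat, epithelial, vessel and fibroblast markers of a mammary gland were all measured, with 11 of 11 white adipocyte, 12 of 12 epithelial, 10 of 10 endothelial and 11 of 11 fibroblast genes of the array above the filter. Lymphocyte and skeletal muscle markers varied most between arrays of the same week. Their mean level at week 1 ranged from 4.20 to 8.84 for lymphocytes and from 4.82 to 10.0 for muscle.

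All 11 fibrillar chains passed the filter, which lay at the 30th percentile of the gene means (log2 4.039). Of type IV, 5 of 6 chains passed, of beaded filament collagens 6 of 6, and of the FACIT group, collagens that lie on the surface of fibrils, 7 of 8. The remaining types passed with 2 of 3 network chains, 2 of 2 multiplexins, 4 of 4 transmembrane collagens and both Col26a1 and Col28a1. The 3 chains below the filter were Col4a3 (mean 3.98, range 3.48 to 4.62), Col8a2 (3.89, 3.50 to 4.49) and Col19a1 (3.63, 3.25 to 4.05). Col4a6 (4.11) and Col10a1 (4.25) lay just above it. Col7a1, the anchoring fibril collagen of stratified epithelium, and Col9a3 shared their probe sets with Mir711 and Tcfl5 and were left out.

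Promoters of 4 members are shown because their levels varied together in pairs over the arrays, as described further on. The RefSeq table (GRCm38.p6) held windows of 250 bases before the start site for 34 of the 42 genes. It held none for Col1a1, Col2a1, Col5a2, Col12a1, Col14a1, Col22a1, Col26a1 and Col4a3. The windows below are those of Col1a2 (chr6:4505368-4505617, plus strand) and Col3a1 (chr1:45311288-45311537, plus strand), chains of types I and III, and of Col6a1 (chr10:76726045-76726294, minus strand) and Col6a2 (chr10:76623631-76623880, minus strand), chains of type VI. Capitals mark matches to 3 motifs that were searched on both strands and did not overlap here. These were the CCAAT box, spelled as its name, the TATA box, for which the letters TATAAA were searched, and the GC box, for which GGGCGG was searched.
Col1a2: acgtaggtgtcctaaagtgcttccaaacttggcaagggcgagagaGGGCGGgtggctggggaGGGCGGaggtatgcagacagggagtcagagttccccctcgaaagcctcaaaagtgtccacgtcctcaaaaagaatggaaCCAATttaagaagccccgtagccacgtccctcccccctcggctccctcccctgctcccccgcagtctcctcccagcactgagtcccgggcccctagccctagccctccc
Col3a1: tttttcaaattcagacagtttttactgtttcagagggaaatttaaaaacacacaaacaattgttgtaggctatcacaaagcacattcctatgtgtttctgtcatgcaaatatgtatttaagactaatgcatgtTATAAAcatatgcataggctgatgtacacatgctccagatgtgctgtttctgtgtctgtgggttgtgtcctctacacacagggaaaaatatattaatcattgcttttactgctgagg
Col6a1: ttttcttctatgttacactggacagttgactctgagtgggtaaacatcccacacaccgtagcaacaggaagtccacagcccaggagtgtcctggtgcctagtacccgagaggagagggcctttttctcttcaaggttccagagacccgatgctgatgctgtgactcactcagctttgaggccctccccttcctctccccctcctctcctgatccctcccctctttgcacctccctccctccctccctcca
Col6a2: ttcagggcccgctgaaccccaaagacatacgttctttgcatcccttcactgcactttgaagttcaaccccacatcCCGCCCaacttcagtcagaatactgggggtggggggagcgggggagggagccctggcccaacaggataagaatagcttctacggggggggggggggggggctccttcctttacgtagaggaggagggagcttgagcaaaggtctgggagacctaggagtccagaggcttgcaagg
Counted from the start site, Col1a2 held GC boxes at -205 and -188 and a CCAAT box at -109. Col3a1 held a TATA box at -117, in a window with a GC content of 35.2% against 62.0% in Col1a2. Col6a1 held none of the 3 motifs and Col6a2 a single GC box on the other strand, at -175. Over the 37 windows of the 34 genes, 32.4% held a CCAAT box and 13.5% a TATA box, against 33.8% and 12.4% of all 32817 windows. A GC box stood in 56.8% of the collagen windows and 32.7% of all windows. A match is a description of the letters, not a binding site or a cause.

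The clearest pattern among the collagens lay between weeks. Over the 4 treatments together, 8 of 39 collagens fell from week 1 to week 12 (12 arrays against 12) and 0 rose. These were Col4a1 and Col4a2 of type IV, Col5a1 of type V, Col6a1, Col6a2 and Col6a6 of type VI, the FACIT collagen Col20a1 and Col28a1. The share of 20.5% was near that of all genes, of which 35.5% were called, 20.4% lower and 15.2% higher, so the number of falling collagens was not apart from the background. At an unadjusted p under 0.05, 16 collagens (41% against 25.3% of all genes) were lower and 0 (against 19.5%) were higher. The median collagen difference was -0.14, and that of all genes -0.02. Fewer cells of a type and less RNA per cell cannot be told apart in such whole-tissue values.

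Col4a1 and Col4a2 encode the chains of the common type IV collagen, which is found in nearly all basement membranes. Col4a1 (chr8:11198423-11312889) measured 7.52, 7.86 and 8.13 (lowest, median and highest array) at week 1, 7.03, 7.52 and 8.05 at week 4, and 7.08, 7.47 and 7.63 at week 12. All but 2 of the 12 week 1 arrays lay above the highest week 12 array, so the weeks overlapped only at the edge. The fall was 0.41 ± 0.09 (adjusted p = 0.000636, limma), a fold of 0.751. Col4a2 (chr8:11312805-11449287) measured 7.21, 7.72 and 8.01 at week 1, 6.61, 7.45 and 7.88 at week 4, and 6.88, 7.22 and 7.43 at week 12. Of its week 1 arrays, 11 of 12 lay above every week 12 array. It fell by 0.47 ± 0.10 (adjusted p = 0.00051), a fold of 0.723.

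The other type IV chains, which build the specialised networks of kidney, skin and smooth muscle, did not pass the test. Col4a5 measured 4.28, 4.94 and 5.62 at week 1 and 4.64, 5.14 and 5.40 at week 12, a difference of 0.18 ± 0.11 (adjusted p = 0.204). Col4a4 ranged from 4.10 to 4.74 at week 1 and from 4.06 to 4.57 at week 12, and Col4a6 from 3.77 to 4.43 and from 3.85 to 4.35, with differences of 0.05 each. These ranges overlapped almost fully, at levels close to the filter. The median over the 5 type IV chains was 0.05, above 0, while the called pair lay below.

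**Figure D1:**
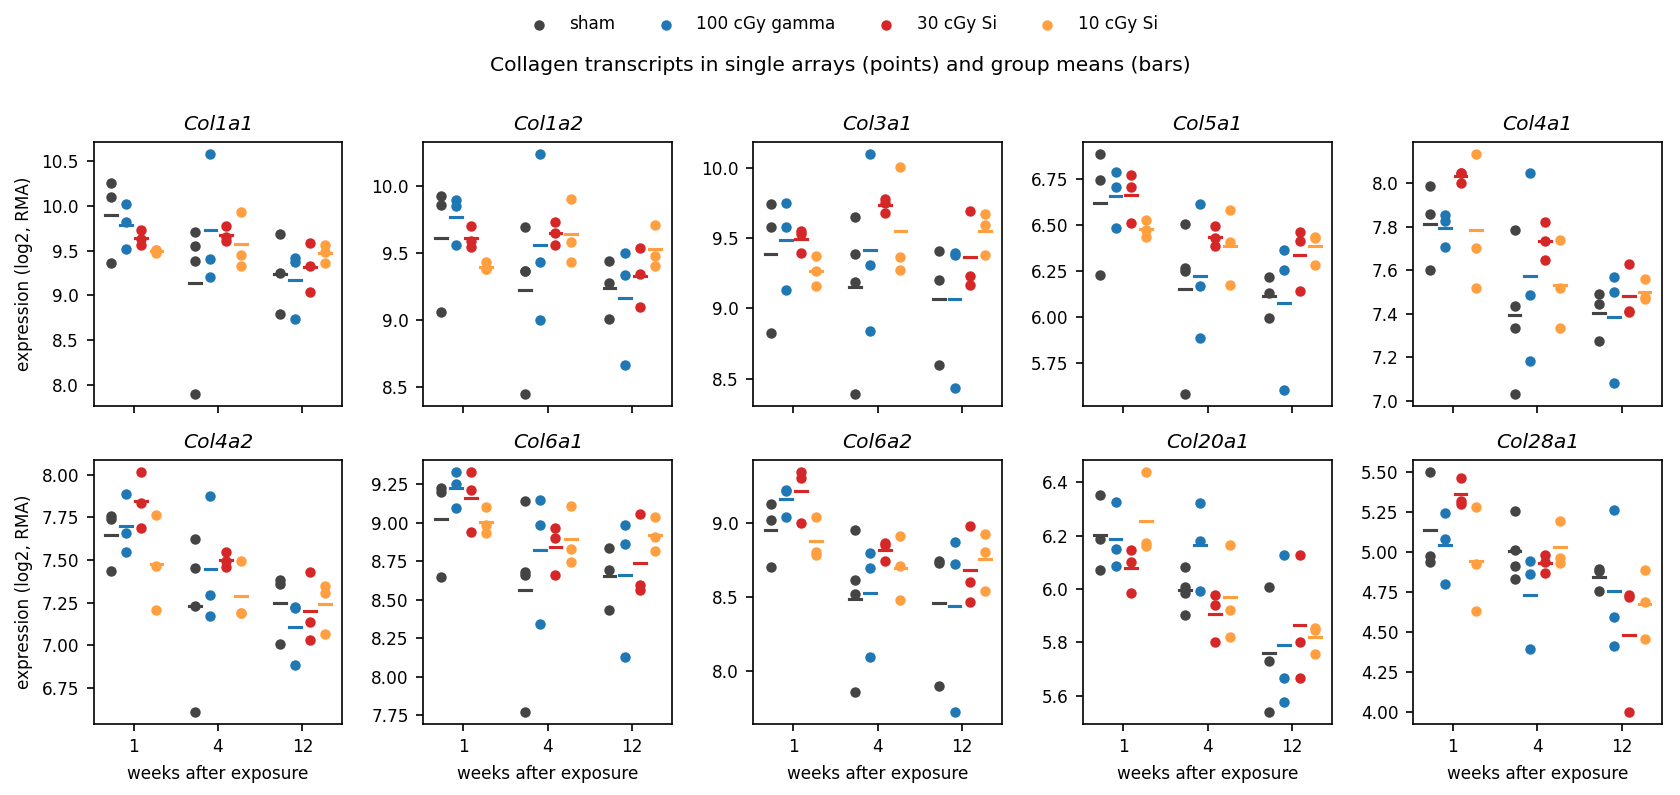
Log2 expression of 10 collagen genes in each of the 37 arrays, 1 panel per gene, with weeks after exposure along the horizontal axis, colours for the 4 treatments, points for arrays and bars for group means. Col4a1 and Col4a2 lie higher at week 1 than at week 12, while sham week 4 replicate 1 is the lowest week 4 array in several panels (Col1a1 at 7.90).

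Fibrillar collagens fell in 1 of 11 chains, and their median difference was -0.14, with 9 of 11 below 0. Col5a1 (chr2:27886381-28039510), the type V chain that starts fibrils and limits their width, measured 6.23, 6.62 and 6.89 at week 1, 5.59, 6.39 and 6.62 at week 4, and 5.61, 6.27 and 6.46 at week 12. Of the week 1 arrays, 10 of 12 were above every week 12 array. It fell by 0.38 ± 0.10 (adjusted p = 0.00404, limma). A dimmer second probe set of Col5a1 (mean 4.45 against 6.37) correlated with the first at 0.161, and with the mean of both the difference was -0.14 and the call was lost (adjusted p = 0.163). Col5a3, another type V chain, ranged from 6.08 to 7.03 at week 1 and from 5.68 to 6.62 at week 12 (-0.26, adjusted p = 0.0522).

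The chains of types I and III, the bulk of the fibres, did not pass the test between weeks 12 and 1. Col1a1 (chr11:94936224-94953042) measured 9.36, 9.60 and 10.26 at week 1, 7.90, 9.55 and 10.58 at week 4, and 8.73, 9.37 and 9.68 at week 12. Its week 4 arrays spanned a wider range than those of both other weeks, from sham replicate 1 to gamma replicate 2. The difference between weeks 12 and 1 was -0.40 ± 0.17 (adjusted p = 0.0654), close in size to the called genes but with a larger error. Col1a2 (chr6:4505618-4541543), the partner chain, measured 9.06, 9.58 and 9.93 at week 1 and 8.66, 9.37 and 9.71 at week 12 (-0.28 ± 0.13, adjusted p = 0.103). Col3a1 (chr1:45311538-45349706) measured 8.82, 9.46 and 9.75 and then 8.43, 9.38 and 9.69 (-0.14 ± 0.15, adjusted p = 0.489), with ranges that overlapped broadly. Col5a2 (6.47, 7.12 and 7.37, then 6.29, 6.97 and 7.39) was at -0.11 ± 0.13 (adjusted p = 0.544). Without sham week 1 replicate 3 and sham week 4 replicate 1 together, a setting chosen after the data had been seen, 13 collagens were called, among them Col1a1 and Col1a2. That count is given without the share of all genes called in the same fit. Col2a1, the cartilage collagen, ranged from 4.88 to 5.48 at week 1 and from 4.99 to 5.57 at week 12 (0.03). Of 12 cartilage, tendon and bone markers, 10 lay below the filter.

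Type VI held the most called chains. Of its 6, 3 fell, 5 lay below 0, and the median was -0.33. Of all genes 20.4% fell, and 6 chains are too few to set against that share. Col6a1 and Col6a2 varied together over the arrays (r = 0.924), so their calls do not count separately. Col6a2 (chr10:76595756-76623630) measured 8.70, 9.04 and 9.34 at week 1, 7.85, 8.71 and 8.95 at week 4, and 7.72, 8.72 and 8.98 at week 12, and fell by 0.47 ± 0.13 between weeks 1 and 12 (adjusted p = 0.00547, limma). Col6a1 (chr10:76708792-76726044) measured 8.65, 9.15 and 9.33, then 7.77, 8.83 and 9.15, then 8.13, 8.83 and 9.06, and fell by 0.36 ± 0.12 (adjusted p = 0.0231). For both genes the weeks overlapped, with 9 and 8 of 12 week 1 arrays above every week 12 array. Without gamma week 12 replicate 1, the lowest array of that week for Col6a1 and several other chains, Col6a1 was at -0.29 and not called (adjusted p = 0.0545). Col6a3, the long chain of the classic type VI molecule, measured 8.58, 9.06 and 9.36 at week 1 and 7.90, 8.85 and 9.22 at week 12 (-0.31 ± 0.14, adjusted p = 0.0934).

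Col6a6 (chr9:105689417-105828246), a chain that can stand in for Col6a3, measured 5.01, 5.74 and 6.08 at week 1 and 4.80, 5.31 and 5.80 at week 12, and fell by 0.39 ± 0.11 (adjusted p = 0.00609, limma). Only 5 of its week 1 arrays were above every week 12 array. With the mean of its probe sets, which correlated at 0.507, it was at -0.22 and not called (adjusted p = 0.0672). With a covariate for white adipocyte markers it was at -0.36 and not called (adjusted p = 0.0782). Col6a4 and Col6a5, the relatives of that chain, did not pass, and Col6a5 was at 0.07.

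Among the other types, Col20a1 and Col28a1 fell. Col20a1 (chr2:180983323-181017545), a FACIT collagen, measured 5.99, 6.16 and 6.44 at week 1, 5.80, 5.98 and 6.32 at week 4, and 5.54, 5.78 and 6.13 at week 12. It stepped down over both intervals by its medians, and 9 of 12 week 12 arrays were below every week 1 array. Its fall of 0.37 ± 0.07 had the smallest adjusted p of the 39 collagens (9.7e-05, limma). Its probe sets correlated at 0.420. Col28a1 (chr6:7997100-8193709), a short chain related to type VI that is known from peripheral nerve, measured 4.63, 5.16 and 5.50 at week 1 and 4.00, 4.73 and 5.26 at week 12. It fell by 0.43 ± 0.10 (adjusted p = 0.00163), with more overlap than Col20a1.

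The multiplexins Col15a1 and Col18a1, which link basement membranes to the matrix beneath, did not pass. Col15a1 measured 8.39, 8.70 and 9.20 at week 1 and 7.71, 8.68 and 9.02 at week 12 (-0.15, adjusted p = 0.359), and Col18a1 6.09, 6.51 and 7.04 and then 5.81, 6.39 and 6.63 (-0.18, adjusted p = 0.141). Col14a1, a FACIT collagen of fibril surfaces, measured 8.43, 8.92 and 9.42 at week 1 and 8.22, 8.63 and 9.16 at week 12 (-0.23, adjusted p = 0.0992). Against the run of lower values stood the transmembrane collagens, with a median of 0.09. Col17a1, which anchors basal epithelial cells in hemidesmosomes, measured 5.36, 5.83 and 6.14 at week 1, 5.39, 5.92 and 6.18 at week 4, and 5.77, 6.02 and 6.27 at week 12. Its lowest array was higher at week 12 than at week 1 while the highest arrays were close, and the difference of 0.14 ± 0.08 did not pass (adjusted p = 0.204). Col25a1 was at 0.16 (adjusted p = 0.148) and Col23a1 at -0.22 (adjusted p = 0.0609). In all, 12 of 39 collagens (30.8%) lay above 0, against 46.5% of all genes.

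**Figure D2:**
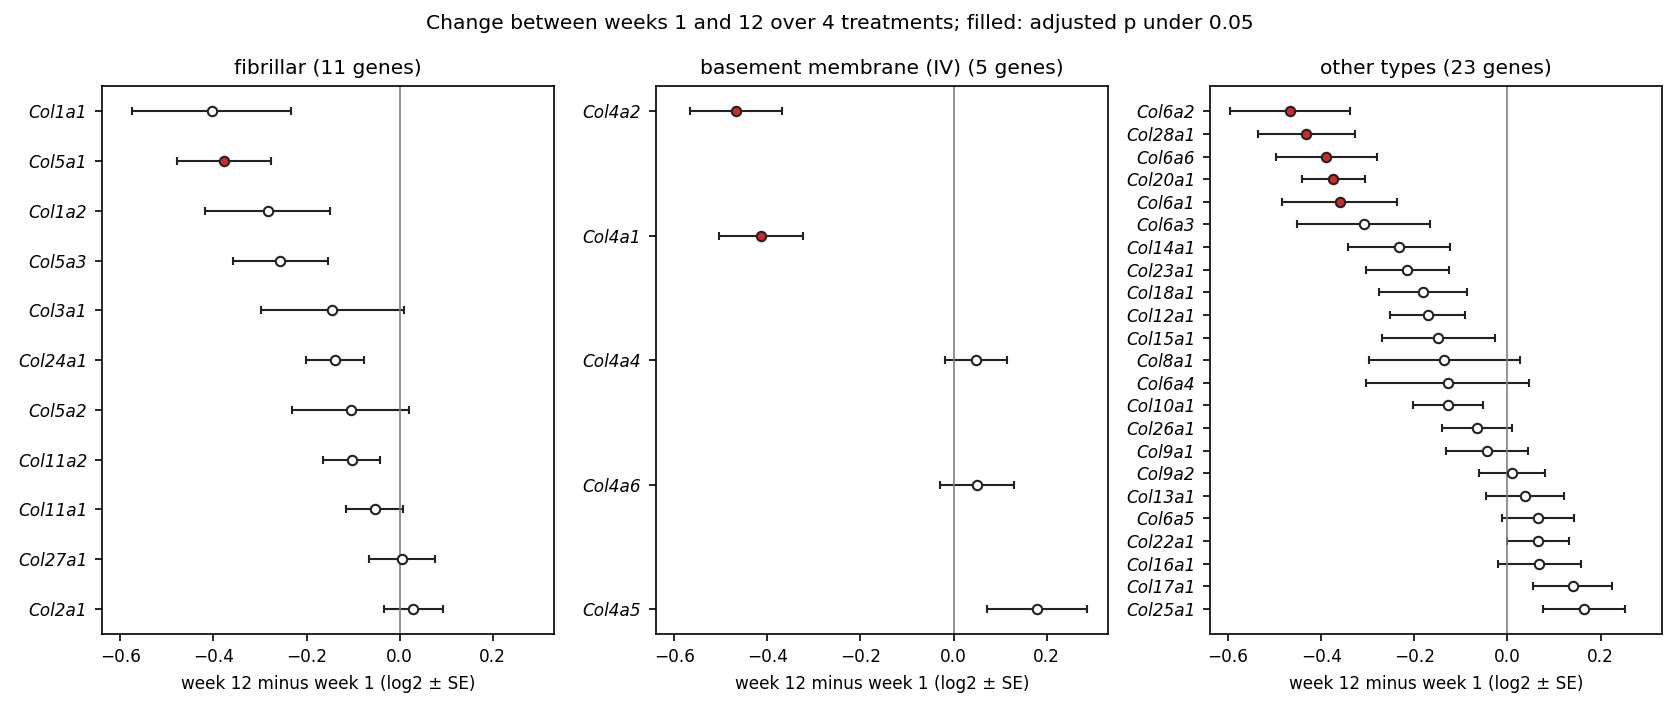
Week 12 minus week 1 over the 4 treatments for the 39 collagens in 3 panels (fibrillar, basement membrane, other), as log2 difference with its SE, with filled points for an adjusted p under 0.05. The 8 filled points lie between -0.47 and -0.36, and 0 points above 0 are filled.

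By week 4 a part of these falls was already present. Between weeks 4 and 1 (13 arrays against 12), 4 of 39 collagens fell and 0 rose, against 14.8% of all genes lower and 11% higher (25.8% called in all). They were Col6a2 (-0.42 ± 0.13, adjusted p = 0.0149, limma), Col5a1 (-0.31 ± 0.10, adjusted p = 0.0217), Col4a1 (-0.30 ± 0.09, adjusted p = 0.0127) and Col4a2 (-0.30 ± 0.10, adjusted p = 0.0229). This comparison and the one above share the week 1 arrays. Without gamma week 4 replicate 3, Col4a2 (-0.27, adjusted p = 0.0502) and Col5a1 (-0.26, adjusted p = 0.0501) lost their calls and 2 collagens remained. Col4a2 also lost its call without 10 cGy Si week 1 replicate 2 (-0.26, adjusted p = 0.0515). With a covariate for white adipocyte markers, Col4a1 (-0.32, adjusted p = 0.0722) and Col4a2 (-0.36, adjusted p = 0.0672) kept their size but not their calls. Without sham week 1 replicate 3, 7 collagens were called, and without sham week 4 replicate 3, 8. Both counts are given without the share of all genes called in the same fits.

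Between weeks 12 and 4, limma called 0 collagens and 1.64% of all genes. At an unadjusted p under 0.05 there were 5 collagens, 4 lower and 1 higher, against 15.9% of all genes. Col20a1 was at -0.20 ± 0.07 (adjusted p = 0.13) and Col14a1 at -0.25 (adjusted p = 0.246). Without sham week 4 replicate 1, Col14a1 was called, and without gamma week 12 replicate 3, Col20a1.

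The same difference within each treatment rests on 3 arrays against 3 and shares no array between treatments. The genes called over the 4 treatments were picked on the mean of these differences. Their shared direction within treatments therefore restates that call and adds no support. Col4a1 was at -0.41 in sham, -0.41 after gamma, -0.55 after 30 cGy Si and -0.28 after 10 cGy Si, and the weeks did not overlap in the first 3. Col5a1 was at -0.51, -0.58, -0.32 and -0.10 in the same order, without overlap in all 4, though after 10 cGy Si the nearest arrays of both weeks measured 6.44. Col6a2 was at -0.49, -0.72, -0.53 and -0.12. Non-overlapping lower collagens numbered 7 of 39 in sham (17.9%, against 11.1% of all genes), 9 after gamma (23.1% against 15.6%), 8 after 30 cGy Si (20.5% against 18.9%) and 4 after 10 cGy Si (10.3% against 16.4%). In the 10 cGy Si mice the fibrillar values ran the other way in part, with Col1a1 at -0.02, Col1a2 at 0.13 and Col3a1 at 0.28. In sham these were at -0.66, -0.37 and -0.31. Whether the change between weeks differs between treatments was tested over all genes by the F test given below.

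Within single treatments limma called 0 collagens in sham (5.12% of all genes) and 0 after gamma (5.74%), with 4 and 11 at an unadjusted p under 0.05 (20.2% and 20.5% of all genes). After 30 cGy Si, 2 of 39 fell (5.13%, against 6.95% of all genes called): Col28a1 by 0.88 (adjusted p = 0.00928) and Col4a2 by 0.65 (adjusted p = 0.0446). After 10 cGy Si, 1 fell (2.56%, against 9.09% of all genes called), Col20a1 by 0.44 (adjusted p = 0.0413). Col28a1 lost its call without 30 cGy Si week 12 replicate 1 (-0.64, adjusted p = 0.0632) and in a fit of these 6 arrays (adjusted p = 0.0587). Col4a2 lost its call without 30 cGy Si week 1 replicate 1 (-0.65), 2 (-0.56) or 3 (-0.72) or week 12 replicate 2 (-0.56) or 3 (-0.61), with adjusted p from 0.0616 to 0.18. Col20a1 lost its call without any 1 of its 6 arrays, with values from -0.49 to -0.35 and adjusted p from 0.0619 to 0.166.

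**Figure D3:**
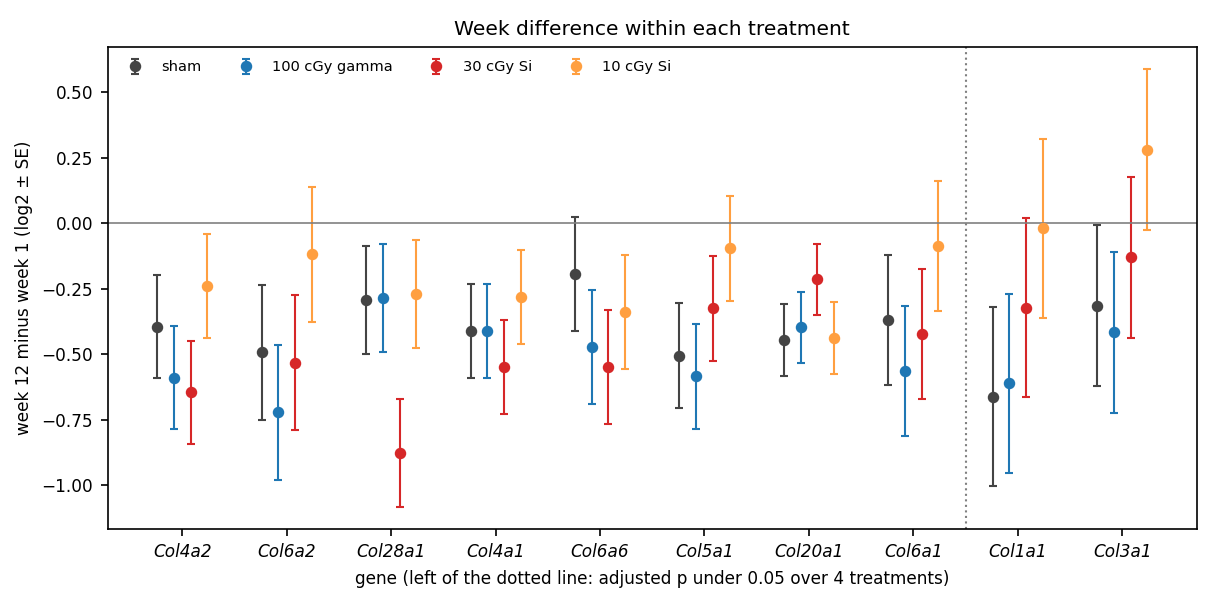
Week 12 minus week 1 as log2 difference for 10 collagens, with a point and SE for each of the 4 treatments (3 arrays against 3 each); the 8 genes left of the dotted line were called over the 4 treatments. Those 8 lie below 0 in all 4 treatments, while Col3a1 is above 0 after 10 cGy Si (0.28). As the 8 were picked on the mean of these 4 differences, their shared direction restates the call and adds no support.

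Counts of called genes that fold, process, degrade or serve as receptors for collagen are given as a description, since in each of these lists the share called between weeks 1 and 12 was no larger than the 35.5% of all genes (20.4% lower, 15.2% higher). Of 18 genes of procollagen folding, 4 fell and 1 rose. Plod1 (-0.43) and Plod3 (-0.29), lysyl hydroxylases, P4ha2 (-0.34), a prolyl hydroxylase, and P3h3 (-0.24) fell, and P4hb (0.31), the disulfide isomerase that is the other subunit of prolyl hydroxylase, rose. Of 11 genes of propeptide cleavage and cross-linking, Bmp1 (-0.30), which removes the C-terminal propeptide, and Loxl4 (-0.23) fell, and Adamts3 (1.02), which removes the N-terminal propeptide, rose. Of 14 proteases and inhibitors, Timp3 (-0.78), an inhibitor held in the matrix, and Mmp2 (-0.52) fell, and Mmp9 (0.64) rose. Of 11 receptors, Ddr2 (-0.24), a kinase that binds fibrillar collagen, fell and Itgb1 (0.19) rose.

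Of 19 partners of the fibrils, 10 fell and 2 rose, with a median of -0.27 against -0.02 for all genes, of which 20.4% fell and 15.2% rose. The proteoglycans and glycoproteins Prelp (-0.65), Podn (-0.63), Thbs2 (-0.61) and Tnxb (-0.55) were lowest, and the small proteoglycans Lum (0.47) and Dcn (0.15), which coat fibrils, rose. Of 14 partners of the basement membrane, 5 were called, near the 35.5% of all genes, and 4 of them fell: Hspg2 (-0.65), the proteoglycan perlecan, Nid1 (-0.47), which bridges laminin and type IV collagen, Lama5 (-0.42) and Pxdn (-0.34), the peroxidase that cross-links type IV collagen. Lama3 (0.42), a laminin chain of epithelium, rose.

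Markers of cell types of the gland are given for the same comparison, in which 35.5% of all genes were called (20.4% lower, 15.2% higher). Of 11 fibroblast markers, 4 fell and 0 rose (median -0.22), and their mean level ranged from 9.18 to 9.70 at week 1 and from 8.88 to 9.44 at week 12. Of 11 white adipocyte markers, 6 fell (median -0.27), with mean levels of 11.3 to 11.6 and then 11.0 to 11.3. Of 10 endothelial markers, 5 fell and 1 rose (median -0.19; 8.54 to 8.87, then 8.22 to 8.75), and of 10 mural and smooth muscle markers 4 fell (median -0.17; 7.99 to 8.63, then 7.86 to 8.09). Epithelial markers rose in 2 of 12 (median 0.29) and macrophage markers in 3 of 10. Of 12 skeletal muscle markers, Atp2a1 (-2.21) and Actn3 (-1.95) fell. Counted in both directions, the white adipocyte and endothelial genes called lay above the 35.5% of all genes. The fibroblast, mural and macrophage genes were near it, and the epithelial and skeletal muscle genes below it. The called genes went the same way within each of these lists except the endothelial one. By direction, the white adipocyte, endothelial, fibroblast and mural falls lay above 20.4% and the macrophage rises above 15.2%, in lists of 10 or 11 genes. The epithelial rises lay near 15.2% and the skeletal muscle falls below 20.4%. The part of these cell types in the fall of the collagens was not tested. With covariates for 4 marker lists (epithelial, lymphocyte, brown adipocyte and skeletal muscle), 11 collagens were called, and with 1 for white adipocyte markers, 10. The share of all genes called in these fits is not given beside them, so the higher counts may not be particular to collagens.

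No collagen passed the adjusted threshold after irradiation. In limma, 0 of 39 collagens were called in each of the 9 comparisons of a treatment with the sham arrays of its week, against 0.0228% of all genes for gamma and for 30 cGy Si at week 1, 0.0835% for 10 cGy Si at week 1, and 0% for the 6 comparisons at weeks 4 and 12. Over 3 weeks 0 collagens were called, against 0% of genes for gamma and for 10 cGy Si and 0.0304% for 30 cGy Si. For any irradiation at week 1 the value was 0 against 0.0759%, and at weeks 4 and 12 it was 0 against 0%. A limma F test of whether the effect of a treatment differed between weeks called 0 collagens and 0% of all genes. At an unadjusted p under 0.05 it held 1 collagen, Col9a2, and 3.96% of all genes.

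At an unadjusted p under 0.05, gamma had 5, 3 and 0 collagens at weeks 1, 4 and 12 (7.82%, 5.56% and 2.82% of all genes). For 30 cGy Si these were 1, 3 and 2 (12%, 8.08% and 5.28%), and for 10 cGy Si 4, 0 and 3 (5.4%, 3.17% and 4.7%). Over the 3 weeks the counts were 3 for gamma (5.36%), 5 for 30 cGy Si (14.7%) and 4 for 10 cGy Si (6.71%). For any irradiation they were 3, 2 and 1 at the 3 weeks (10%, 5.83% and 4.43%). These small counts depended on single sham arrays. For any irradiation, leaving out 1 sham array gave 2 to 6 at week 1 (6 without replicate 3), 1 to 8 at week 4 (8 without replicate 3) and 0 to 5 at week 12 (5 without replicate 3). The ranges at weeks 1, 4 and 12 were 2 to 5, 2 to 7 and 0 to 3 for gamma, 2 to 4, 1 to 11 and 1 to 6 for 30 cGy Si, and 1 to 7, 0 to 3 and 0 to 5 for 10 cGy Si. The highest came without sham replicate 3 of the week in 7 of these 9 ranges, and without sham replicate 2 for gamma at weeks 1 and 4. Comparisons of the same week share their sham arrays, so the values of different treatments are given side by side.

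**Figure D4:**
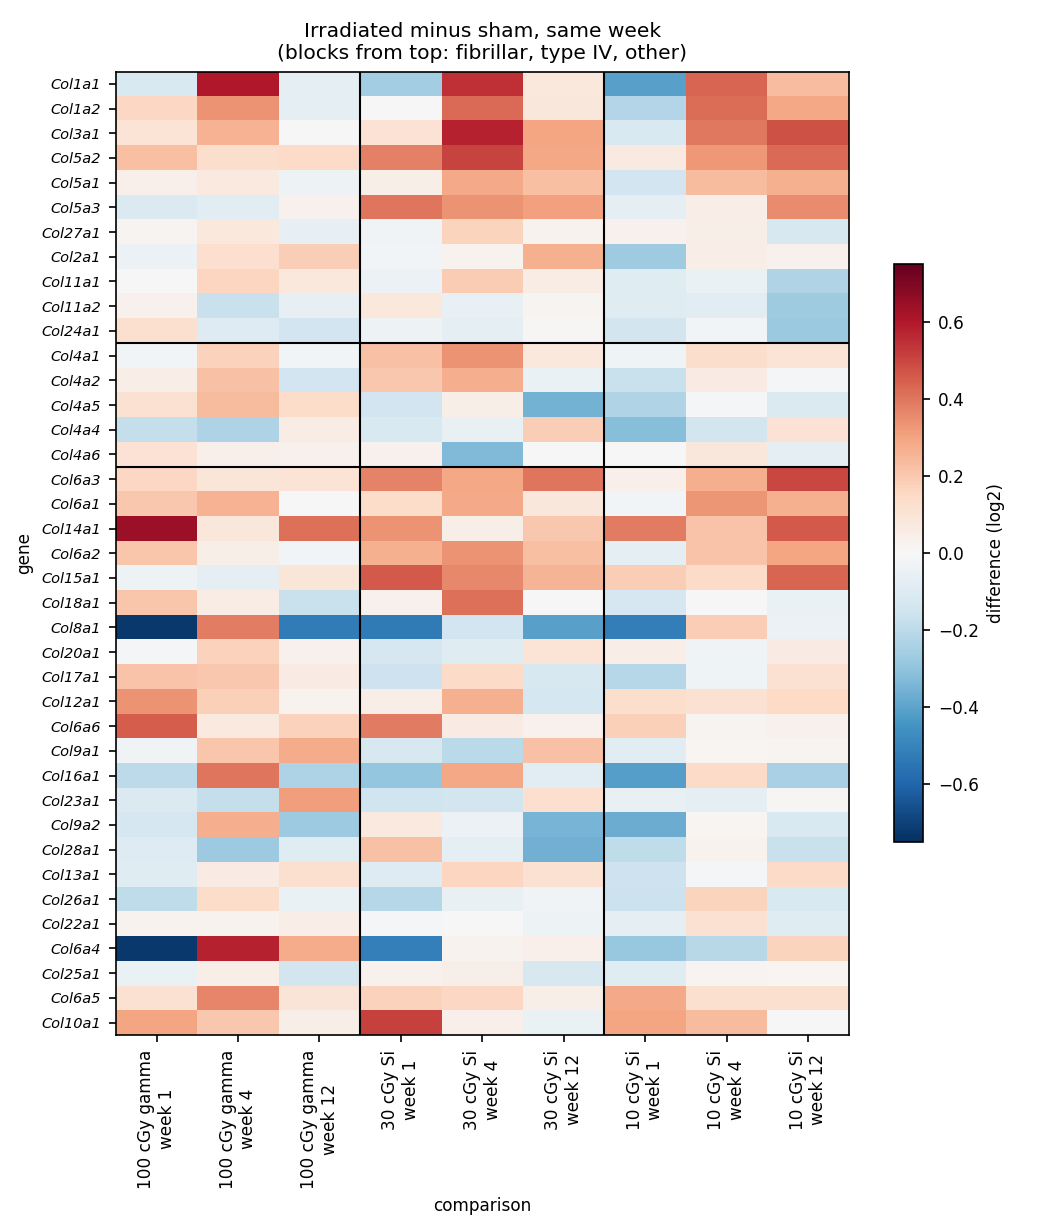
Log2 difference from the sham arrays of the same week for the 39 collagens (vertical axis, by class) in the 9 treatment-by-week comparisons, with colour from -0.75 to 0.75. The week 4 columns hold the most values above 0, and 0 of the cells passed the adjusted threshold.

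The intervals show what size of change these arrays leave room for. Col1a1 measured 10.26, 10.10 and 9.36 in sham at week 1, 10.02, 9.82 and 9.52 after gamma, 9.63, 9.56 and 9.73 after 30 cGy Si, and 9.51, 9.47 and 9.50 after 10 cGy Si. The sham arrays spanned the values of all irradiated arrays, and the 10 cGy Si arrays were the closest together. The difference was -0.12 after gamma (95% interval -0.82 to 0.58), -0.26 after 30 cGy Si (-0.96 to 0.44) and -0.41 after 10 cGy Si (-1.11 to 0.29). At week 12 Col1a1 measured 9.68, 8.79 and 9.25 in sham, 8.73, 9.41 and 9.38 after gamma, 9.59, 9.33 and 9.04 after 30 cGy Si, and 9.37, 9.57 and 9.49 after 10 cGy Si. All 3 irradiated groups overlapped sham, with differences of -0.06, 0.08 and 0.23. Col3a1 at week 12 was at -0.00, 0.30 and 0.48 (for 10 cGy Si a 95% interval from -0.15 to 1.11).

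Type IV collagen had narrower intervals. Col4a1 measured 7.86, 7.99 and 7.60 in sham at week 1, 7.85, 7.83 and 7.71 after gamma, 8.05, 8.05 and 8.0 after 30 cGy Si, and 7.70, 8.13 and 7.52 after 10 cGy Si. The 30 cGy Si arrays were all just above the sham arrays, by 0.22 on average (95% interval -0.15 to 0.58, adjusted p = 0.622). At week 12 Col4a1 measured 7.49, 7.27 and 7.44 in sham, 7.08, 7.57 and 7.50 after gamma, 7.63, 7.41 and 7.41 after 30 cGy Si, and 7.47, 7.56 and 7.48 after 10 cGy Si. The differences there were -0.02, 0.08 and 0.10, each with a 95% interval within -0.39 to 0.47. Col4a2 lay between -0.17 and 0.27 in the 9 comparisons. Type VI chains ranged from -0.02 to 0.33 for Col6a1, from -0.07 to 0.33 for Col6a2 and from 0.04 to 0.50 for Col6a3. Col17a1 lay between -0.21 and 0.21.

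Col14a1 had the smallest unadjusted p of the collagens after gamma. It measured 8.51, 8.76 and 8.43 in sham at week 1 and 8.94, 9.27 and 9.42 after gamma, without overlap, a difference of 0.64 ± 0.22 (95% interval 0.19 to 1.09, adjusted p = 0.443, limma). After 30 cGy Si it measured 8.90, 8.73 and 9.07 and after 10 cGy Si 8.95, 8.73 and 9.19, both partly above sham. At week 4 the sham arrays spread from 8.11 to 9.33 and enclosed all irradiated arrays. At week 12 it measured 8.22, 8.40 and 8.60 in sham, 8.42, 8.88 and 9.16 after gamma, and 8.96, 8.57 and 8.28 after 30 cGy Si. Both irradiated groups overlapped sham. After 10 cGy Si it measured 8.66, 9.00 and 8.95, without overlap. Its difference over 3 weeks was 0.38 ± 0.12 after gamma (adjusted p = 0.801) and 0.36 ± 0.12 after 10 cGy Si (adjusted p = 0.602). Non-overlapping higher collagens numbered 4 of 39 for gamma at week 1 (10.3%, against 8.77% of all genes).

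Col10a1, a network collagen of growing cartilage, had the smallest unadjusted p after 30 cGy Si at week 1. It measured 3.92, 3.98 and 4.16 in sham, 4.43, 4.23 and 4.28 after gamma, 4.30, 4.74 and 4.56 after 30 cGy Si, and 4.48, 4.28 and 4.19 after 10 cGy Si. All irradiated arrays lay above all sham arrays, at levels around the filter. The difference after 30 cGy Si was 0.51 ± 0.15 (95% interval 0.21 to 0.82, adjusted p = 0.261, limma), and that of any irradiation 0.37 ± 0.12 (adjusted p = 0.301). It was the 1 collagen of 39 (2.56%) whose 9 irradiated arrays all lay above sham at week 1, and 2.44% of all genes did so. With array weights, which give less weight to arrays that depart from their group, Col10a1 was called after 30 cGy Si at week 1, as were 410 genes in all.

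At the low end were Col8a1 and Col6a4 after gamma at week 1, both at -0.72 (± 0.32, adjusted p = 0.592, and ± 0.35, adjusted p = 0.631). Col9a2, a FACIT chain of cartilage, was at -0.37 after 10 cGy Si at week 1 (adjusted p = 0.705) and at -0.35 after 30 cGy Si at week 12 (adjusted p = 0.906), without overlap in either. Col4a4 was at -0.32 after 10 cGy Si at week 1 (adjusted p = 0.816). Col24a1 and Col11a2 were at -0.28 and -0.27 after 10 cGy Si at week 12. Col18a1 was 0.41 ± 0.18 above sham after 30 cGy Si at week 4, without overlap (adjusted p = 0.574), and 5 of 39 collagens (12.8%) were higher without overlap there, against 6.19% of all genes.

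Over 3 weeks the values after 30 cGy Si (9 arrays against 10) were led by type V chains. Col5a3 measured 6.88, 7.03 and 6.63 at week 1, 6.51, 6.55 and 6.53 at week 4, and 6.61, 6.27 and 6.27 at week 12 after 30 cGy Si. In sham it measured 6.66, 6.43 and 6.25, then 5.79, 6.27, 6.66 and 6.06, then 6.09, 5.68 and 6.45. The 30 cGy Si arrays lay in the upper part of the sham range or above it, and overlapped it in each week. Col5a3 differed by 0.35 ± 0.12 (95% interval 0.11 to 0.59, adjusted p = 0.216, limma), Col5a2 by 0.39 ± 0.14 (adjusted p = 0.228) and Col15a1 by 0.36 ± 0.14 (adjusted p = 0.241). Col3a1 was at 0.33 ± 0.17 and Col1a1 at 0.12 ± 0.19. The share of collagens at an unadjusted p under 0.05 there was 12.8%, and that of all genes 14.7%. Without sham week 12 replicate 3, Col15a1 was called and 305 genes in all were called, against 4 with it. Lymphocyte markers had a median of -1.38 in this comparison with 0 of 10 above 0, skeletal muscle markers a median of -0.79, and 16 of 18 procollagen folding genes lay above 0 (median 0.17). Their part in the collagen values was not tested.

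Of the pathway genes, limma called 1 in the comparisons of a treatment with sham of its week. P4ha1, the catalytic subunit of prolyl hydroxylase, rose by 0.84 ± 0.14 after 10 cGy Si at week 1 (adjusted p = 0.0067). In that comparison 10 of 39 collagens lay above 0 (25.6%, against 52.2% of all genes), with a median of -0.09 against 0.01 for all genes, and 0 of 5 type IV chains did. Without sham replicate 1, 2 or 3 the count was 14, 13 or 6 and the median -0.02, -0.04 or -0.17.

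At week 4 the mean of the irradiated groups lay above the sham mean for most collagens. For the main chains listed below, the size of this depended largely on a single sham array. For any irradiation (9 arrays against 4), 33 of 39 collagens lay above 0 (84.6%, against 59.5% of all genes), with a median of 0.10 against 0.03. Col1a1 measured 7.90, 9.55, 9.70 and 9.38 in sham, 9.41, 10.58 and 9.20 after gamma, 9.65, 9.61 and 9.78 after 30 cGy Si, and 9.93, 9.33 and 9.45 after 10 cGy Si. Sham replicate 1 stood far below the other 36 arrays, and gamma replicate 2 was the highest. Of the 9 irradiated arrays, 3 lay above the highest sham array. The difference of 0.53 ± 0.25 (adjusted p = 0.809) became 0.12 ± 0.22 without sham replicate 1. Col3a1 went from 0.41 ± 0.23 to 0.16, Col1a2 from 0.40 ± 0.20 to 0.14, Col5a2 from 0.32 ± 0.18 to 0.08, Col6a1 from 0.29 ± 0.18 to 0.03 and Col4a1 from 0.22 ± 0.13 to 0.09. Without that array 24 of 39 collagens lay above 0, with a median of 0.07 against 0.01 for all genes. Without sham replicate 2, 3 or 4 the count was 33, 31 or 29 and the median 0.16, 0.14 or 0.09. Epithelial markers were above 0 in 12 of 12 genes in the same comparison (median 0.41) and skeletal muscle markers had a median of -0.86. In sham replicate 1 brown adipocyte markers lay on average 1.05 above their means over all arrays, more than in any other array. The part of these tissues in the collagen values was not tested.

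The other weeks gave no run in 1 direction. For any irradiation, 18 of 39 collagens lay above 0 at week 1 (53.3% of all genes; median -0.02) and 24 at week 12 (54.1% of all genes; median 0.07). At week 1 the count was 11 when sham replicate 3 was left out, and 24 when sham replicate 1 or 2 was. At week 12 it was 24, 21 or 19 without sham replicate 1, 2 or 3, with medians of 0.09, 0.0071 and -0.0019.

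Radiation quality and dose were compared without the sham arrays (9 arrays against 9 over 3 weeks). Between 30 cGy Si and gamma 0 collagens were called, against 0.00759% of all genes, and 4 had an unadjusted p under 0.05 (13.5% of all genes). Col5a3 was at 0.40 ± 0.12 (95% interval 0.16 to 0.64, adjusted p = 0.191, limma) and Col15a1 at 0.36 ± 0.14 (adjusted p = 0.277), while Col4a5 was at -0.32 ± 0.12 (adjusted p = 0.285) and Col17a1 at -0.20 ± 0.10 (adjusted p = 0.365). With array weights Col5a3 was called, as were 254 genes. Col5a3 after gamma measured 6.44, 6.46 and 6.11 at week 1, 6.19, 6.40 and 5.75 at week 4, and 5.87, 6.22 and 6.21 at week 12. Each of these arrays lay below all 30 cGy Si arrays of its week. As Col5a3 was picked from this comparison, that restates its difference and adds no support. The share of all genes that separate in this way was not counted.

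Between the Si doses, 0 collagens were called, against 0.0228% of all genes, and 3 had an unadjusted p under 0.05 (6.51% of all genes). All 11 fibrillar chains lay above 0 at 30 against 10 cGy, as did 52.8% of all genes, with a median of 0.11, against 0.01 for all genes. The 3 were Col11a1 (0.19 ± 0.07, adjusted p = 0.651) and Col11a2 (0.16), which form a fibrillar collagen of cartilage, and Col2a1 (0.15). All 3 were at low levels, with no array above 5.57.

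The main chains of types I, IV, V and VI varied together with their partners over the 37 arrays, and the pairs Col4a5-Col4a6 and Col9a1-Col9a2 did not pass the test. Of 10 pairs chosen for shared molecules or neighbouring genes, 8 had both members above the filter, and 6 correlated with an adjusted p under 0.05 (two-sided permutation test, 100000 resamples, Benjamini-Hochberg over the 8 pairs). Col1a1 and Col1a2 had r = 0.942 and rho = 0.907, and r = 0.915 without the 2 arrays farthest from the median. Col4a1 and Col4a2 had r = 0.920 and rho = 0.907, and r = 0.911 without 2 arrays. Col6a1 had r = 0.924 with Col6a2 and 0.863 with Col6a3 (rho 0.898 and 0.797, and 0.896 and 0.793 without 2 arrays). The type V chains Col5a1 and Col5a2 had r = 0.725 and rho = 0.642, and r = 0.572 without 2 arrays. Col3a1 and Col5a2 had r = 0.934 and rho = 0.907, and r = 0.906 without 2 arrays. For r over all 37 arrays, these 6 pairs had a permutation p at the smallest value possible (1e-05, adjusted 1.333e-05). Correlation was not limited to partners: Col5a1 had r = 0.862 with Col4a1, a pair that was not tested.

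With the 12 group means removed, so that weeks and treatments played no part, the same 6 pairs had r between 0.836 and 0.953. Col4a5 and Col4a6, neighbours on the X chromosome with 1343 bases between their start sites, had r = 0.333 (rho = 0.304, adjusted p = 0.0501 and 0.0776) and r = 0.172 without 2 arrays. Col9a1 and Col9a2 had r = 0.143 (rho = 0.146, adjusted p = 0.403 and 0.389). With the group means removed they had r = 0.363 and 0.346 (adjusted p = 0.0319 and 0.0365, permutation test). That test shuffled the 37 deviations as if independent, though removing 12 means leaves 25 degrees of freedom. These p-values are therefore too small, and no correlation within groups is claimed for these pairs. Both pairs lay near the filter or at low levels.

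Gene neighbourhood was not shared by all pairs that varied together. Col4a1 and Col4a2 lie head to head on chromosome 8, with start sites 21 bases apart and gene models that overlap by 85 bases. Col3a1 and Col5a2 are neighbours on chromosome 1 with 24624 bases between them, and Col6a1 and Col6a2 on chromosome 10 with 85161 bases between them. Col1a1 and Col1a2 lie on chromosomes 11 and 6, and their r was as high as that of the neighbours. In the promoter windows, Col4a1 and Col4a2 both held a CCAAT box, Col1a2 and Col3a1 (r = 0.923 over the arrays) shared none of the 3 motifs, and Col6a1 held none of them.

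A part of the variation was shared by many chains. The first principal component of the 39 collagens held 31.2% of their variance, with 30 genes of the same sign, and the next held 11.3%. The median correlation of a chain with the other collagens was at most 0.332. A score was taken for each array as the mean deviation of a set of chains from their means over all arrays. For Col1a1, Col1a2, Col3a1, Col5a1 and Col5a2 it ranged from -1.06 in sham week 4 replicate 1 to 0.62 in gamma week 4 replicate 2. For Col4a1 and Col4a2 the first of these was also lowest (-0.69), and the other (0.45) was second to 30 cGy Si week 1 replicate 2 (0.52). Next lowest were gamma week 12 replicate 1 (-0.78 and -0.53) and sham week 12 replicate 2 (-0.58 and -0.37). These low arrays belonged to 3 different groups.

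**Figure D5:**
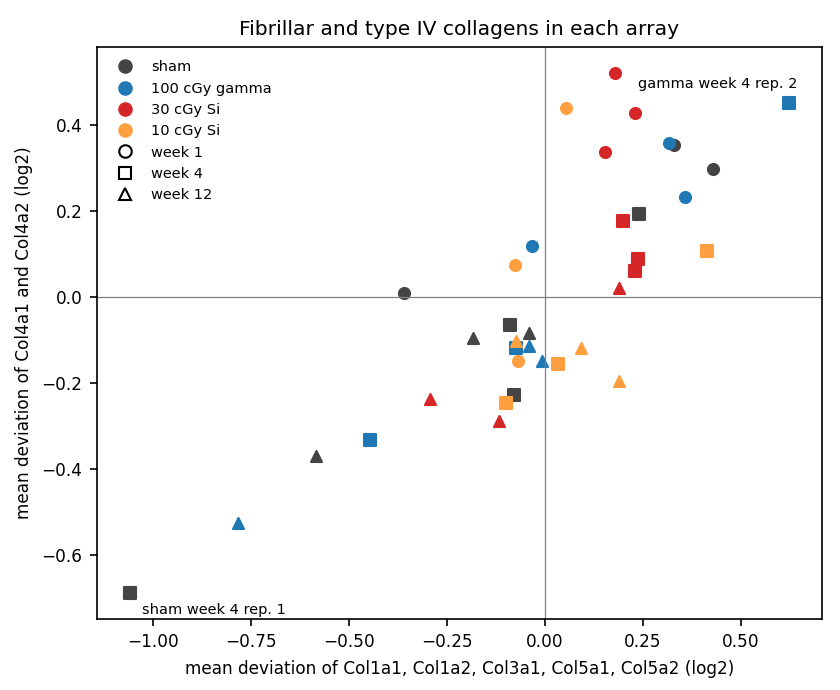
Mean log2 deviation of the fibrillar chains Col1a1, Col1a2, Col3a1, Col5a1 and Col5a2 (horizontal) against that of Col4a1 and Col4a2 (vertical) in each of the 37 arrays, with colour for treatment and shape for week. Sham week 4 replicate 1 lies lowest on both axes (-1.06 and -0.69) and gamma week 4 replicate 2 farthest right (0.62 and 0.45).

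In sham week 4 replicate 1 the score of type VI was -0.95, and 11 of 39 collagens were above their own mean. Fibroblast markers were at -0.33, mural markers at -0.58, epithelial markers at -0.56, macrophage markers at -0.45 and skeletal muscle markers at -2.52. White adipocyte markers were at 0.23. Brown adipocyte markers were at 1.05, the highest score for that list of all arrays. In gamma week 12 replicate 1 type VI was at -0.91, fibroblast markers at -0.48 and brown adipocyte markers at 0.11. In both arrays the fibroblast score lay less far below the mean than that of type VI, though scores of different genes are not comparable in size. In sham week 12 replicate 2, also a low array, type VI was at -0.75, fibroblast markers at -0.08 and brown adipocyte markers at -0.35. Sham week 12 replicate 1 had fibroblast markers at -0.50 with a fibrillar score of -0.04. These arrays were picked by their values. Over all 37 arrays, Pdgfrb, a gene of the fibroblast list, had r = 0.855 with the fibrillar score. The part of fibroblasts, brown fat or other tissue in the low scores of these arrays was not tested.

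Some chains at low levels showed little of this shared variation. Col4a4, Col4a6, Col6a4, Col6a5, Col22a1, Col24a1, Col25a1 and Col26a1 had median correlations below 0 with the other collagens. Their mean levels were 4.11 to 4.73, close to the filter at 4.039, and noise was not told apart from a lack of shared variation. Chains at higher levels could also have a low median, such as Col15a1 (0.104) and Col6a3 (0.155). Col14a1 had r = 0.462 with Col1a1 and Col17a1 0.415, while Col28a1 had 0.149 and Col20a1 0.458. As these are correlations over arrays that share weeks and tissue mix, they are given as a description.

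The genes whose levels were most like the fibrillar score over the 37 arrays, of all genes tested that are no collagens, were Loxl2 (r = 0.897), Loxl1 (0.889) and Bmp1 (0.879). Loxl1 and Loxl2 are lysyl oxidases, which cross-link collagen and elastin, and Bmp1 cleaves the propeptide. They were followed by Rcn3 (0.872), Htra1 (0.868), Cttn (0.859), Meg3 (0.858), Pdgfrb (0.855), Mrc2 (0.852), a collagen uptake receptor, and Krt17 (0.841). Most like Col4a1 and Col4a2 were Sparc (0.883), a collagen-binding protein of the matrix, Pxdn (0.880) and Hspg2 (0.861). Slc12a4 (0.847), Prelid1 (0.835), Wwtr1 (0.834), Shc1 (0.833), Fndc3b (0.829), Mark4 (0.829) and Cilk1 (0.826) came next.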

How the data were processed

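RNA of 37 samples was measured on 1 Affymetrix array each. The authors deposited log2 values from RMA and oligo, per the submitters' processing notes, with versions not given in the sources used here. RMA subtracts background, equalises the arrays and combines the probes of a set, which can compress differences at low levels. Values were used as deposited. Of 35556 probe sets, 21218 had 1 symbol in the platform annotation, and those with several (1881) or not listed (12457) were left out. The members and lists were chosen with earlier results of these data known.

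One limma model (version 3.58.1, R 4.3.3) with a mean for each of 12 groups was fitted to 13174 genes with a mean above the 30th percentile (25 residual and 3.4 prior degrees of freedom). P-values were two-sided and adjusted by Benjamini-Hochberg over all genes of a contrast, and the procedure was tested on simulated data. Named genes were the main chains, every called collagen, collagens with the smallest p per contrast, and called pathway members. Alternatives were other filters, the mean of probe sets, quantile normalization, robust and trended eBayes, array weights, the replicate block, fits of single contrasts, marker covariates and leaving out each array.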

Additional observations from a re-analysis of the deposited data

Results flagged for a closer look

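In groups of 4 to 10 arrays, an array was picked out where its gap to the nearest other array, divided by the range of the group, exceeded Dixon's 95% critical value. Sham at week 4, with 4 arrays, was the 1 group large enough. In it, 3 of 39 collagens were picked out and 0 of 7 collagen scores, and chance picks out about 1 in 20 groups. Col17a1 measured 5.39 in replicate 1 and 5.89 to 5.96 in the other 3 arrays (ratio 0.880). Col2a1 measured 5.28 in replicate 1 and 5.02 to 5.06 in the others (0.843). Col11a1 measured 4.63 in replicate 4 and 4.75 to 4.77 in the others (0.855). Replicate 1 was thus the low array for Col17a1 and the high one for Col2a1.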

How the results depend on the processing

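The count of 0 called collagens held in the irradiation comparisons under the alternatives run, apart from these. With array weights it was 1 for 30 cGy Si at week 1 (Col10a1) and 1 for 30 cGy Si against gamma (Col5a3). Leaving out 1 array gave 0 to 1 for 30 cGy Si over 3 weeks. For week 4 against week 1 (4 collagens), array weights gave 10, covariates for 4 marker lists 8, leaving out 1 array 2 to 8, and leaving out both arrays least like the rest, chosen after seeing the data, 7. For week 12 against week 4 (0 collagens), leaving out 1 array gave 0 to 1, and leaving out those 2 gave 1 (Col14a1). For week 12 against week 1 (8 collagens), array weights gave 14 and leaving out those 2 arrays 13, with all 8 shared in both. Leaving out 1 array there gave 8 to 11, the mean of probe sets 6 and the filter at the 50th percentile 7. Counts in this section are given without the share of all genes called in the same fit. A higher or lower count may therefore not be particular to collagens.

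The replicate number as a block gave 9 collagens for week 12 against week 1, 4 for week 4 against week 1, and 0 for week 12 against week 4 and in every irradiation comparison. With this block Col4a2 after 30 cGy Si (adjusted p = 0.0571) and Col20a1 after 10 cGy Si (adjusted p = 0.0562) were no longer called between weeks 12 and 1. Arrays of different groups that share a number had a median correlation of deviations of -0.004, against -0.007 for other arrays, and 15 of 37 arrays were most like one of their own number, so the number marks no pairing here. Without a filter these same 2 calls were lost too (adjusted p = 0.0626 and 0.0605). No alternative reversed a called direction. Signal near the filter limits Col10a1, Col4a4 and Col4a6.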
